A study of Mus musculus with 8 samples.

Results

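The 10 genes described here are receptors, ligands, the nuclear mediator and target genes of the Notch pathway: the receptors Notch1, Notch2 and Notch3, the ligands Dll1, Dll3 and Jag1, the DNA-binding factor Rbpj, and the targets Hes1, Hes5 and Hey1. They were picked by gene symbol, with earlier results of these data known. All 10 were found in both expression tables, which hold 11496 genes for neurospheres and 12056 genes for cortex. RNA sequencing was done on 8 libraries of C57BL/6 mice, 2 in each of 4 groups. KO 7 and KO 8 were neurospheres of Hdac3 KO cerebrum, and WT 5 and WT 6 neurospheres of wild-type cerebrum, both dissected at E16.5 and grown for 4 days in neural stem cell medium. KO 1 and KO 2 were the dorsal cerebral cortex of Hdac3 KO pups at P0, and WT 1 and WT 2 that of wild-type pups of the same age. For cortex, the KO titles carry the name Emx1 and a Cre of that gene appears in the authors' deposited table. Emx1 is a gene of dorsal telencephalic progenitors, so that cells born elsewhere, such as vessel cells, microglia and ventrally born interneurons, need not have lost Hdac3. No driver was stated for the neurosphere KO. The design text counts 2 brains per group, so the p-values below rest on the spread between 2 brains or 2 cultures.

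Notch receptors are membrane proteins that are cut when a Delta or Jagged ligand on a neighbouring cell binds them. The released intracellular part enters the nucleus, joins Rbpj and turns on the Hes and Hey genes, which encode basic helix-loop-helix repressors. In the developing cortex these repressors hold back proneural genes and keep radial glia, the stem cells of the tissue, from differentiating. Without the Notch intracellular part, Rbpj recruits corepressor complexes, some of which contain Hdac3, a histone deacetylase.

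Rbpj binds a short DNA sequence whose core is TGGGAA, searched on both strands. RefSeq promoters of the mouse build GRCm38.p6, taken as the 250 bases before each start site, matched 8 of the 10 genes by symbol, with 10 promoters in all; those not matched were Hes1 and Hey1. The core was present on either strand in 3 of these promoters, which belong to Hes5 and Rbpj, against 21.6% of all 32851 promoters of the same length. The 2 Rbpj promoters overlap, and the match in the second is a site of the first counted again. A longer form of the site, GTGGGAA, contains the core and was present in 1 promoter, that of Hes5, where both core matches are part of it, against 5.42% of all promoters. Both promoters are shown because they carry the motif of the pathway's own DNA-binding factor, and the capitals mark the core. The Hes5 matches begin 226 bases (minus strand) and 82 bases (plus strand) before the start site, and those of Rbpj 149 bases (plus strand) and 65 bases (minus strand). A match in these letters is a description of the window and not evidence of binding.
Hes5 promoter, chr4:154960673-154960922, plus strand, GRCm38.p6: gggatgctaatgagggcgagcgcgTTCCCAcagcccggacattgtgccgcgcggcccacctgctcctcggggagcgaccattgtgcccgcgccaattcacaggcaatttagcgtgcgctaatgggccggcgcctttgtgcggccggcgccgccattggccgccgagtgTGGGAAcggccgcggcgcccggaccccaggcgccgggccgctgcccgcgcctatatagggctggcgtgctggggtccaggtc
Rbpj promoter, chr5:53590096-53590345, plus strand, GRCm38.p6: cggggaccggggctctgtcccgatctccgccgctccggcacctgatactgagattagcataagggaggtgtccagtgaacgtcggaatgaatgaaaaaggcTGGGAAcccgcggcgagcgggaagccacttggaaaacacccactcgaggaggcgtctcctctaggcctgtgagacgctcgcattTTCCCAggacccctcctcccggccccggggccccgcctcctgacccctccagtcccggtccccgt

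The values below are FPKM (fragments scaled to transcript length and to the mapped fragments of the library) as the authors deposited them, 1 per library. Hdac3 itself had 18.03 FPKM in KO 7 and 20.5 FPKM in KO 8, against 34.4 FPKM in WT 5 and 28.7 FPKM in WT 6. In cortex it had 26.8 and 27.1 FPKM in KO 1 and KO 2, against 48.1 and 46.1 FPKM in WT 1 and WT 2. Every KO library was thus below every WT library of its tissue, at 0.611 of the WT mean in neurospheres and 0.572 in cortex. On the log2(FPKM + 1) scale the difference was −0.68 in neurospheres (limma adjusted p = 0.104) and −0.78 in cortex (limma adjusted p = 0.000319). The authors' own test on counts gave a smaller log2 fold change of −0.29 in neurospheres (SE 0.18, DESeq2 adjusted p = 0.437), which did not pass. In cortex it gave −0.52 (SE 0.09, DESeq2 adjusted p = 3.83e-07). The labels do not state which part of the gene was deleted, and reads from the remaining part are counted. Markers of neurons and radial glia were measured in both tissues (all 10 of each list), whereas none of 10 endothelial and none of 8 microglial markers was in the neurosphere table.

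**Figure D1:**
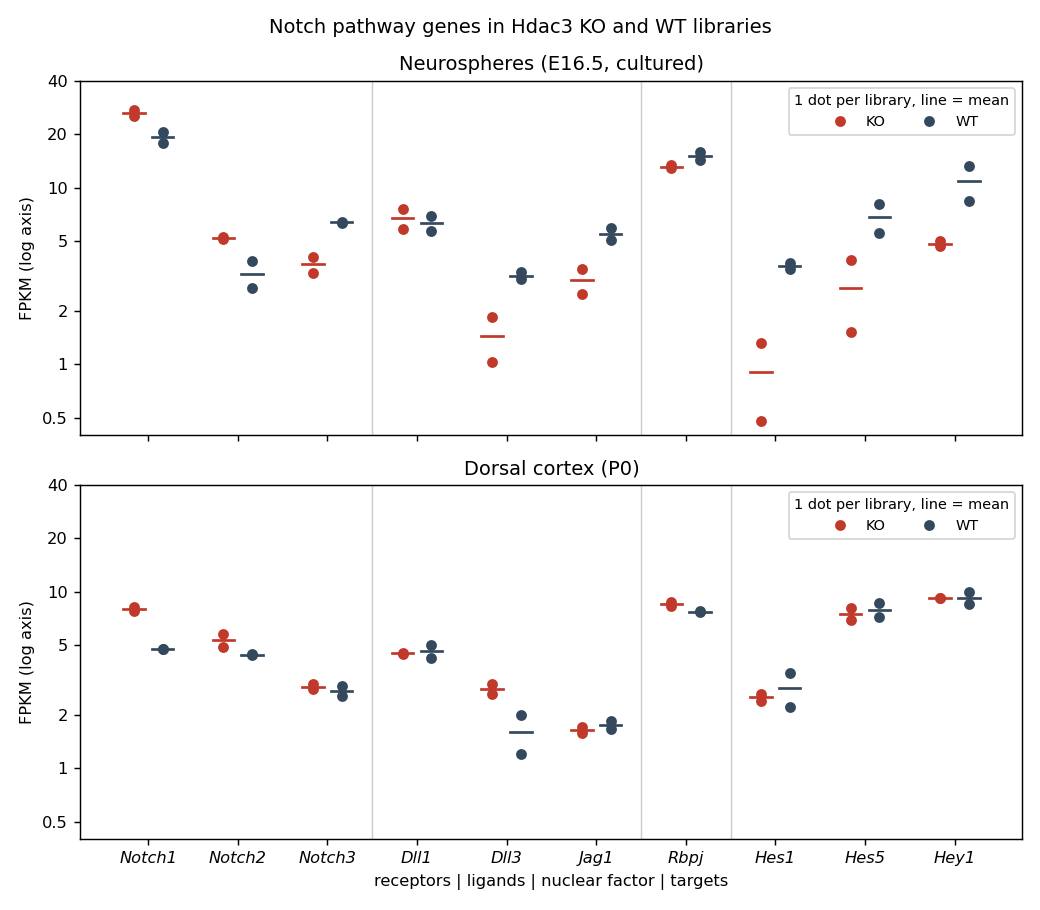
FPKM of the 10 Notch pathway genes in each library (log axis), neurospheres above and dorsal cortex below; each point is a library, the line is the mean, and KO stands left of WT. In neurospheres both KO points lie above both WT points for Notch1 and Notch2 (14.6% of all genes tested lie so) and below them for 7 genes (38.3% of all), with Hes1 down to 0.480 FPKM in KO 8, whereas in cortex the points of 6 genes overlap.

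Of the receptors, Notch1 and Notch2 were higher in KO than in WT libraries of both tissues, and Notch3 was lower in KO neurospheres. The change of Notch1 in cortex passed the test, with a level of 1.68 times that of WT. Notch1, the receptor most studied in cortical progenitors, had 8.22 and 7.76 FPKM in KO 1 and KO 2, against 4.75 and 4.76 FPKM in WT 1 and WT 2. Both KO cortices were above both WT cortices by more than the replicates differed, with means of 7.99 ± 0.329 FPKM in KO and 4.76 ± 0.00641 FPKM in WT (SD, n = 2 each). The log2 difference was 0.64 (SE 0.09, 95% interval 0.45 to 0.84, limma adjusted p = 0.00211). In neurospheres Notch1 had 25.3 and 27.3 FPKM in KO 7 and KO 8, against 17.8 and 20.6 FPKM in WT 5 and WT 6. The groups did not overlap there either, yet the log2 difference of 0.43 (SE 0.15, 95% interval 0.07 to 0.80) did not pass (limma adjusted p = 0.195). The libraries are bulk RNA, so for this and every gene below more cells of a type and more RNA per cell cannot be told apart.

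Notch2, a receptor also found in cortical stem cells, had 5.12 and 5.28 FPKM in KO 7 and KO 8, against 2.70 and 3.82 FPKM in WT 5 and WT 6. In cortex it had 5.72 and 4.88 FPKM in KO 1 and KO 2, against 4.41 and 4.35 FPKM in WT 1 and WT 2. KO libraries were above WT libraries in both tissues, with ratios of the means of 1.59 in neurospheres and 1.21 in cortex. Neither difference passed: 0.55 on the log2 scale in neurospheres (95% interval 0.02 to 1.09, limma adjusted p = 0.238) and 0.22 in cortex (SE 0.10, limma adjusted p = 0.126). After median-ratio rescaling of the libraries the cortex difference was 0.32 and passed (limma adjusted p = 0.0427, with a range of 0.0391 to 0.568 over all alternatives tried). Notch3, a receptor best known from mural cells of vessels and also present in neural progenitors, had 3.30 and 4.04 FPKM in KO 7 and KO 8, against 6.32 and 6.40 FPKM in WT 5 and WT 6. Both KO neurosphere libraries were below both WT libraries, with a log2 difference of −0.66 (95% interval −1.15 to −0.17, limma adjusted p = 0.161). In cortex Notch3 had 2.81 and 2.99 FPKM in KO 1 and KO 2, against 2.94 and 2.56 FPKM in WT 1 and WT 2, and the groups overlapped (log2 difference 0.06, 95% interval −0.16 to 0.28).
Of 10 mural markers 3 were in the neurosphere table, and their summed level was 10.1 to 11.3 FPKM in KO and 13.3 to 16.6 FPKM in WT libraries. Most of it came from Cspg4 (mean 7.50 FPKM in KO and 11.5 FPKM in WT), which is also on the oligodendrocyte lineage list. On the log2 scale 2 lay below 0 and 1 above, Acta2 (0.34). The authors' deposited table called 2 mural markers higher in KO neurospheres and 0 lower. The part of mural cells in the lower Notch3 was not tested.

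The ligands went different ways. Dll3 rose in KO cortex and was lower in KO neurospheres, Jag1 was lower in KO neurospheres and overlapped in cortex, and Dll1 overlapped in both tissues. Dll3, a divergent Delta protein that does not activate Notch in neighbouring cells, had 2.64 and 2.997 FPKM in KO 1 and KO 2, against 2.02 and 1.2 FPKM in WT 1 and WT 2. Both KO cortices were above both WT cortices, and the mean was 2.82 ± 0.251 FPKM in KO and 1.61 ± 0.577 FPKM in WT (SD, n = 2 each). The log2 difference was 0.57 (SE 0.14, 95% interval 0.24 to 0.89, limma adjusted p = 0.025). The authors' bounds of WT 1, 1.61 to 2.43 FPKM, overlap those of KO 1, 2.24 to 3.05 FPKM, whereas WT 2 had 0.890 to 1.51 FPKM. Without WT 2 the difference was 0.34 (limma adjusted p = 0.0961), and the call was also lost without KO 1 (0.63, adjusted p = 0.0675) or KO 2 (0.50, adjusted p = 0.134). Over all alternatives the adjusted p of Dll3 in cortex ranged over 0.00793 to 0.299.
In neurospheres Dll3 had 1.03 and 1.84 FPKM in KO 7 and KO 8, against 3.34 and 3.02 FPKM in WT 5 and WT 6, so that here the KO libraries were the lower ones. The log2 difference was −0.80 (SE 0.26, 95% interval −1.41 to −0.18) and did not pass (limma adjusted p = 0.174). Without KO 8 it passed (−1.04, limma adjusted p = 0.0333, with a range of 0.0333 to 0.523 over all alternatives), in a fit whose spread came from the WT pair alone and that called 623 of all genes lower, against 106 with all libraries.

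Jag1, a ligand of the Jagged class, had 2.505 and 3.46 FPKM in KO 7 and KO 8, against 5.07 and 5.89 FPKM in WT 5 and WT 6. The KO mean was 0.544 of the WT mean, without overlap, and the log2 difference of −0.71 (95% interval −1.25 to −0.17) did not pass (limma adjusted p = 0.171). In cortex Jag1 had 1.59 and 1.72 FPKM in KO 1 and KO 2, against 1.68 and 1.87 FPKM in WT 1 and WT 2, and the groups overlapped. Dll1, the Delta ligand made by differentiating cells that activates Notch in their neighbours, had 5.84 and 7.54 FPKM in KO 7 and KO 8, against 6.93 and 5.66 FPKM in WT 5 and WT 6. In cortex it had 4.50 and 4.44 FPKM in KO 1 and KO 2, against 4.99 and 4.20 FPKM in WT 1 and WT 2. The Dll1 intervals were −0.43 to 0.58 in neurospheres and −0.26 to 0.20 in cortex on the log2 scale, so that changes within these bounds were not detectable.

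Rbpj, through which all 3 receptors act on transcription, had a KO mean of 0.868 times the WT mean in neurospheres and 1.11 times in cortex. It had 13.3 and 12.96 FPKM in KO 7 and KO 8, against 15.9 and 14.4 FPKM in WT 5 and WT 6. In cortex it had 8.78 and 8.25 FPKM in KO 1 and KO 2, against 7.66 and 7.74 FPKM in WT 1 and WT 2. KO libraries were below WT libraries in neurospheres and above them in cortex, with log2 differences of −0.19 (95% interval −0.56 to 0.19, limma adjusted p = 0.543) and 0.13 (95% interval −0.06 to 0.32, limma adjusted p = 0.282). The neurosphere value lies close to the median of all genes there, −0.15, and came to −0.036 after median-ratio rescaling and −0.053 by quantile normalization. In cortex the same scalings gave 0.23 and 0.24 (limma adjusted p = 0.0691 and 0.0595).

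The 3 targets were lower in both KO neurosphere libraries than in both WT neurosphere libraries, and none passed the test. In cortex the KO and WT values of all 3 overlapped. Hes1, a repressor of proneural genes, had 1.33 and 0.480 FPKM in KO 7 and KO 8, against 3.72 and 3.48 FPKM in WT 5 and WT 6. The KO mean of 0.905 ± 0.600 FPKM was 0.251 of the WT mean of 3.60 ± 0.170 FPKM (SD, n = 2 each). The bounds that the authors' Cufflinks run gave were 0.797 to 1.86 FPKM in KO 7 and 0.170 to 0.791 FPKM in KO 8, against 2.85 to 4.59 FPKM in WT 5 and 2.66 to 4.31 FPKM in WT 6. The log2 difference was −1.31 (SE 0.29, 95% interval −1.99 to −0.63), the largest in size of the 10 genes, with a limma adjusted p of 0.0891.
Hes5, the other Hes repressor of cortical stem cells and a direct readout of Notch signalling, had 3.87 and 1.52 FPKM in KO 7 and KO 8, against 8.11 and 5.497 FPKM in WT 5 and WT 6. The groups did not overlap, but both genotypes were spread widely, and the log2 difference of −1.13 (SE 0.35, 95% interval −1.95 to −0.32) did not pass (limma adjusted p = 0.155). Hey1, a related repressor, had 4.99 and 4.64 FPKM in KO 7 and KO 8, against 13.2 and 8.42 FPKM in WT 5 and WT 6. Its KO mean was 0.445 of the WT mean, and the log2 difference was −0.99 (SE 0.24, 95% interval −1.56 to −0.43, limma adjusted p = 0.106). Hes1 passed without KO 7 (−1.64, limma adjusted p = 0.00117) or without KO 8 (−0.98, adjusted p = 0.0449), and Hes5 and Hey1 passed without KO 7 (adjusted p = 0.00197 and 0.0475). With 1 KO library left, the spread came from the WT pair alone, and 390 (without KO 7) and 623 (without KO 8) of all genes passed as lower, against 106 with all libraries. Over all alternatives the adjusted p ranged over 0.00117 to 0.435 for Hes1, 0.00197 to 0.545 for Hes5 and 0.0153 to 0.439 for Hey1.
In cortex Hes1 had 2.41 and 2.63 FPKM in KO 1 and KO 2, against 3.47 and 2.23 FPKM in WT 1 and WT 2. Hes5 had 8.03 and 6.88 FPKM in the same KO libraries, against 8.60 and 7.16 FPKM in the WT libraries. Hey1 had 9.21 and 9.16 FPKM in KO, against 9.98 and 8.49 FPKM in WT. The 3 log2 differences were −0.11 (95% interval −0.44 to 0.21), −0.07 (−0.31 to 0.18) and −0.00 (−0.21 to 0.21). The point estimates of the loss in neurospheres lie outside these intervals, but have wide intervals of their own. The contrast between the tissues did not pass for any of the 3 (limma adjusted p = 0.123, 0.241 and 0.114). After median-ratio rescaling the cortex differences of Hes5 and Hey1 turned to 0.033 and 0.10. The sum of the 3 targets was 10.2 and 6.64 FPKM in KO 7 and KO 8, against 25.0 and 17.4 FPKM in WT 5 and WT 6. In cortex it was 19.7 and 18.7 FPKM in KO 1 and KO 2, against 22.0 and 17.9 FPKM in WT 1 and WT 2. The sum of the 3 receptors ran the other way in neurospheres, at 33.7 and 36.6 FPKM in KO and 26.8 and 30.9 FPKM in WT, with most of it from Notch1.

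**Figure D2:**
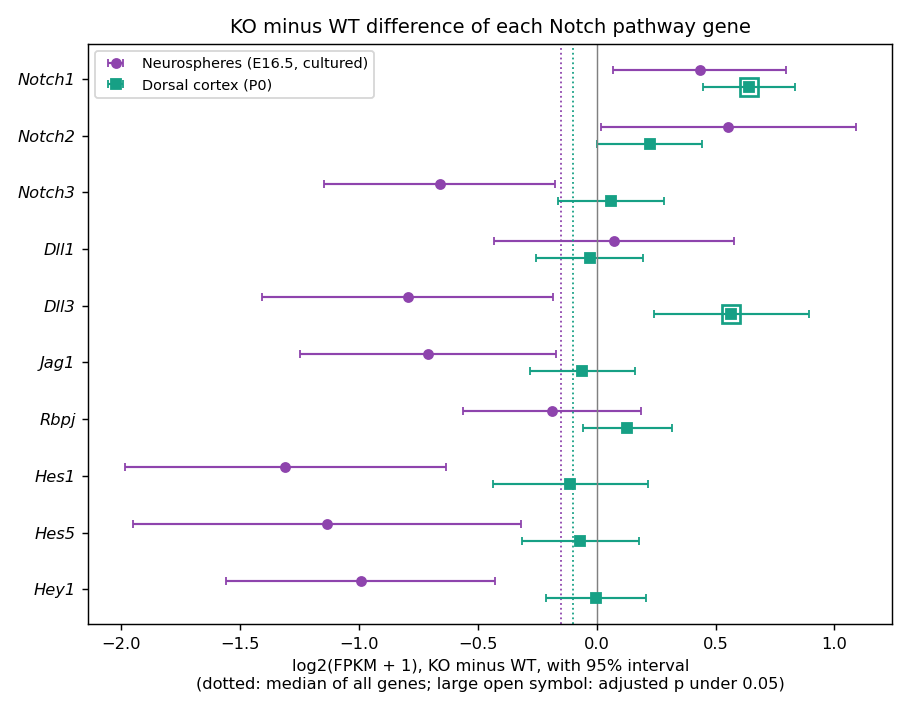
Difference between KO and WT in log2(FPKM + 1) for each gene, neurospheres above cortex within a row, with the 95% interval of limma-trend; dotted lines give the median of all genes in each tissue. The targets Hes1, Hes5 and Hey1 lie between −1.31 and −0.99 in neurospheres and between −0.11 and −0.00 in cortex (0.033 and 0.10 for Hes5 and Hey1 after rescaling), and only Notch1 and Dll3 in cortex carry the open symbol of a call.

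Counted together, 0 of the 10 genes passed in KO neurospheres in either direction, where 0.219% of all 11408 genes tested passed as higher and 0.929% as lower. At an unadjusted p under 0.05 there were 8 of 10, against 20.1% of all genes. The KO libraries lay above both WT libraries for 2 genes (14.6% of all genes did so) and below them for 7 (38.3% of all genes). The median log2 difference of the 10 was −0.69, and that of all genes tested was −0.15. In cortex 2 of 10 genes rose, Notch1 and Dll3, against 4.8% of all 11988 genes tested, and 0 fell, against 17.7%. At an unadjusted p under 0.05 there were 3, against 39% of all genes. The KO cortices lay above both WT cortices for 4 genes, Notch1, Notch2, Dll3 and Rbpj (15.5% of all genes did so), and below them for 0 (50.2% of all genes). The median of the 10 was 0.03, and that of all genes −0.10.
The neurosphere calls depend on how the spread is estimated. With the spread taken from all 8 libraries, 6 of the 10 genes passed as lower in KO neurospheres (Notch3, Dll3, Jag1, Hes1, Hes5 and Hey1) and 1 as higher (Notch1), while 1340 and 330 of 10947 genes did so, and the cortex calls of Notch1 and Dll3 were lost (adjusted p = 0.0769 and 0.299). That of Notch1 ranged over 0.00159 to 0.0769 over all alternatives, and no other alternative lost it.

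The authors' own test on counts gives a second readout of the same libraries, and its fold changes are listed as they stand in the authors' deposited table. For neurospheres the authors' deposited table called Notch1 and Notch2 higher in KO, with log2 fold changes of 0.54 (SE 0.15, DESeq2 adjusted p = 0.00887) and 0.68 (SE 0.20, adjusted p = 0.0196). It called Notch3 lower, at −0.60 (SE 0.19, adjusted p = 0.0308). These were 2 of 10 higher and 1 of 10 lower, against 3.5% and 2.31% of the 12530 genes with an adjusted p in that table. For cortex the authors' deposited table called 4 of the 10 higher and 0 lower, against 6.36% and 5.55% of 14425 genes. These were Notch1 at 0.79 (SE 0.09, DESeq2 adjusted p = 5.75e-15), Notch2 at 0.34 (adjusted p = 0.00858), Dll3 at 0.64 (adjusted p = 0.0125) and Rbpj at 0.39 (adjusted p = 0.00999).
Hes1, Hes5, Dll3 and Hey1 in neurospheres differed most between the readouts. For Hes1 in neurospheres the authors' deposited table gives −0.56 (SE 0.29, DESeq2 adjusted p = 0.294), whereas the log2 ratio of the mean FPKM was −1.99. For Hes5 the authors' deposited table gives −0.67 (adjusted p = 0.164) beside −1.34, for Hey1 −0.70 (adjusted p = 0.0712) beside −1.17, and for Dll3 −0.49 (adjusted p = 0.386) beside −1.14. Their mean normalised counts in that table were 85.5 for Hes1, 111 for Hes5, 134 for Dll3 and 327 for Hey1, against 4498 for Notch1. Of the receptors, Notch1 had 0.45, Notch2 0.67 and Notch3 −0.79 as log2 ratios of the mean FPKM, beside 0.54, 0.68 and −0.60. Dll1, with a mean count of 539, had 0.09 beside 0.08. The part of the counts in these gaps was not tested. For Rbpj in neurospheres the authors' deposited table gives 0.00 (adjusted p = 0.998) beside −0.20. No library totals entered these values, so depth is known here only through those counts and the bounds above.

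**Figure D3:**
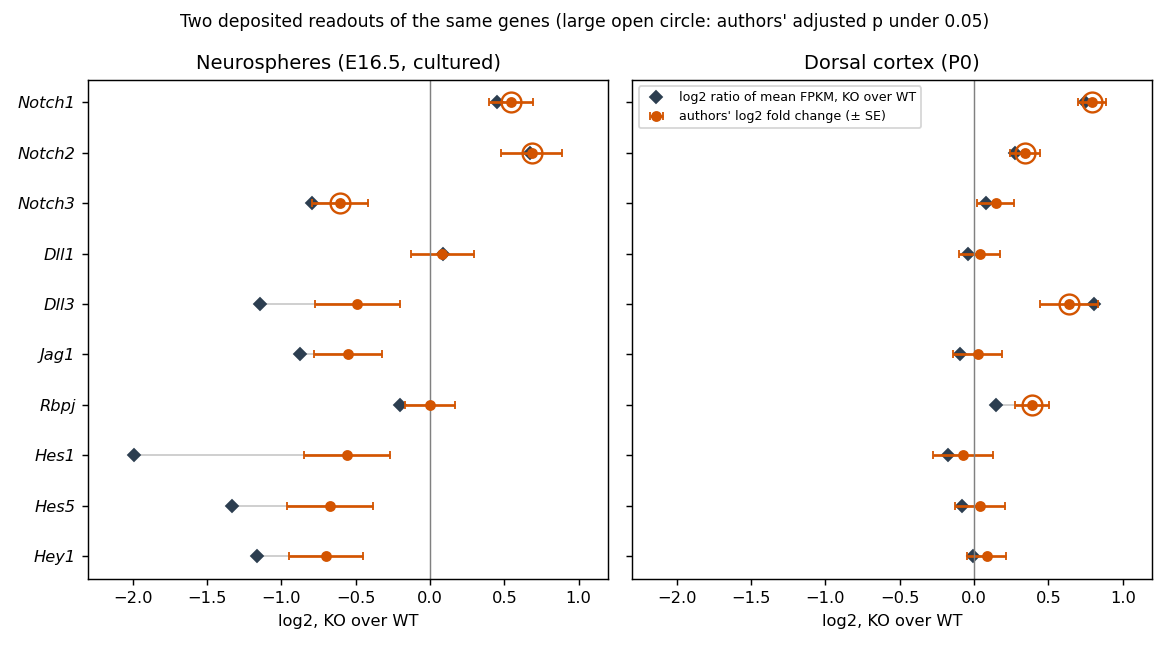
Log2 of KO over WT for each gene by the ratio of the mean FPKM (diamonds) and by the authors' DESeq2 fold change with its standard error (circles), for neurospheres and for cortex; open circles mark an adjusted p under 0.05 in the authors' deposited table. In neurospheres the diamond of Hes1 lies at −1.99 and its circle at −0.56, while Notch1 and Notch2 lie close together in both panels.

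Whether the effect of the KO differed between neurospheres and cortex was tested as a contrast of the differences, neurospheres minus cortex, over all 8 libraries. The contrast of 6 genes was below 0 at an unadjusted p under 0.05 (Notch3, Dll3, Jag1, Hes1, Hes5 and Hey1), and 0 of 10 passed after adjustment. Of all 10947 genes tested, 17.6% had an unadjusted p under 0.05, and 0.42% passed above 0 and 0.977% below 0. Dll3 came nearest, with a contrast of −1.36 (SE 0.30, 95% interval −2.05 to −0.67, limma adjusted p = 0.0706). Hes1 had −1.20 (limma adjusted p = 0.123), Hes5 −1.07 (adjusted p = 0.241) and Hey1 −0.99 (adjusted p = 0.114). Notch3 had −0.72 (limma adjusted p = 0.116) and Jag1 −0.65 (adjusted p = 0.196). Those of Notch1 (−0.21, 95% interval −0.58 to 0.16), Notch2 (0.33), Dll1 (0.10) and Rbpj (−0.32) were nearer to 0. Dll3 and Rbpj lay below WT in both KO neurosphere libraries and above WT in both KO cortices, which 4.06% of all genes did. Notch1 and Notch2 lay above WT in both tissues, which 4.31% did.

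The order of the levels also differed between groups. In KO neurospheres Notch1 (mean 26.3 FPKM) and Rbpj (13.1 FPKM) were the highest of the 10 and Dll3 and Hes1 the lowest, while Notch3, Jag1, Hes5, Dll3 and Hes1 overlapped with their neighbours in that order. In WT neurospheres Notch1 (19.2 FPKM), Rbpj (15.1 FPKM) and Hey1 (10.8 FPKM) led, and Hes1, Notch2 and Dll3 overlapped at the low end, at 3.60, 3.26 and 3.18 FPKM. Hey1 thus stood in place 5 in KO and place 3 in WT, and Hes5 in place 8 in KO and place 4 in WT. In KO cortex Hey1 (9.19 FPKM), Rbpj (8.51 FPKM) and Notch1 (7.99 FPKM) led, and Jag1 was lowest (1.66 FPKM). In WT cortex Hey1 (9.24 FPKM), Hes5 (7.88 FPKM) and Rbpj (7.70 FPKM) overlapped with their neighbours at the top, Notch1 stood in place 4 (4.76 FPKM), and Jag1 and Dll3 overlapped at the bottom (1.77 and 1.61 FPKM).

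Around these 10 genes, 0 genes of the 5 further pathway lists passed in neurospheres. Of 7 further receptors and ligands tested there, 0 passed in either direction, with a median log2 difference of 0.18. Of 26 genes for processing of ligand and receptor 0 passed (median −0.19). The most distant were the glycosyltransferases Lfng and Mfng, which tune the response of Notch to its ligands. Lfng had 9.72 and 8.39 FPKM in KO 7 and KO 8, against 14.5 and 15.3 FPKM in WT 5 and WT 6, a log2 difference of −0.67 (limma adjusted p = 0.1201). Of 22 nuclear cofactors of Rbpj 0 passed (median −0.07). Spen, a corepressor that binds Rbpj, had 23.0 and 21.6 FPKM in KO 7 and KO 8, against 9.48 and 15.9 FPKM in WT 5 and WT 6. Its groups did not overlap, with a log2 difference of 0.81 (limma adjusted p = 0.146), and the authors' deposited table called it higher (0.79, adjusted p = 0.00199).
The other Hes and Hey genes and targets had 6 genes tested in neurospheres, of which 0 passed. All 6 lay below 0 and the median was −0.45, against −0.15 for all genes tested. The smallest, Myc at −0.12 (named after its value was seen), is within the 0.143 by which median-ratio rescaling shifts all neurosphere genes. Hes6, a Hes relative that promotes neuronal differentiation, had 11.9 and 11.003 FPKM in KO 7 and KO 8, against 23.0 and 15.3 FPKM in WT 5 and WT 6. Fabp7, a fatty acid binding protein of radial glia, had 351 and 396 FPKM in KO, against 680 and 461 FPKM in WT. Both genes were lower in both KO libraries, at log2 differences of −0.67 and −0.59 (limma adjusted p = 0.168 and 0.260). Among 10 proneural and neuronal differentiation factors, the kind of gene that Hes proteins repress, 0 passed and the median was 0.27. The authors' deposited table called 3 of 9 higher and 0 lower, against 3.5% and 2.31% of all genes there. Neurod2, a neuronal differentiation factor, had 89.1 and 84.6 FPKM in KO 7 and KO 8, against 59.6 and 50.9 FPKM in WT 5 and WT 6 (log2 difference 0.65, limma adjusted p = 0.1003). With the spread from all 8 libraries, 1 further receptor or ligand passed as higher and 1 as lower, 4 processing genes as lower, 1 cofactor as higher and 1 as lower, 1 target as lower, and 3 proneural or neuronal factors as higher and 1 as lower. Either rescaling of the libraries gave 1 proneural or neuronal factor higher.

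In cortex each of these 5 lists held genes that passed, where 4.8% of all 11988 genes tested passed as higher and 17.7% as lower. Of 7 further receptors and ligands 0 rose and 2 fell (median log2 difference −0.12). Cntn6, a contactin reported as a Notch ligand, fell to 4.35 and 4.76 FPKM in KO 1 and KO 2, against 9.64 and 9.98 FPKM in WT 1 and WT 2 (log2 difference −0.96, limma adjusted p = 0.000530). The related contactin Cntn1 fell by 0.37 on the log2 scale (limma adjusted p = 0.0113), but did not pass after median-ratio rescaling (limma adjusted p = 0.0755). Of 27 genes for processing 1 rose and 2 fell (median −0.00). Numbl, a Numb-like adaptor that restrains Notch, had 22.8 and 24.7 FPKM in KO, against 19.5 and 16.8 FPKM in WT (log2 difference 0.37, limma adjusted p = 0.0180). Fbxw7, the ubiquitin ligase subunit that marks the Notch intracellular part for breakdown, had 19.96 and 21.6 FPKM in KO, against 28.6 and 29.1 FPKM in WT (−0.45, limma adjusted p = 0.00395). Neurl1a, a ubiquitin ligase of the Neuralized family, fell by 0.38 (limma adjusted p = 0.0377). Its call was lost after median-ratio rescaling and by quantile normalization (limma adjusted p = 0.114 and 0.141). The authors' deposited table did not call it either (−0.31, DESeq2 adjusted p = 0.152).
Of 22 cofactors of Rbpj in cortex 1 rose and 3 fell (median −0.05). The Groucho-type corepressor Tle2 rose by 0.41 (limma adjusted p = 0.0169), while its relatives Tle1 and Tle3 fell by 0.47 and 0.44 (adjusted p = 0.00686 and 0.0119). L3mbtl3, a chromatin protein that binds Rbpj, fell by 0.48 (limma adjusted p = 0.00569). Of 7 further Hes and Hey genes and targets 1 rose, Fabp7, with 1239 and 1183 FPKM in KO 1 and KO 2, against 870 and 977 FPKM in WT 1 and WT 2 (log2 difference 0.39, limma adjusted p = 0.0115). Of 11 proneural and neuronal factors 2 rose, Neurod2 (0.37, limma adjusted p = 0.0239) and Dcx (0.24, adjusted p = 0.0329), and 1 fell, Neurod6 (−0.39, adjusted p = 0.00702), with a median of 0.10. With the spread taken from all 8 libraries these counts in cortex came to 0 in each list.

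**Figure D4:**
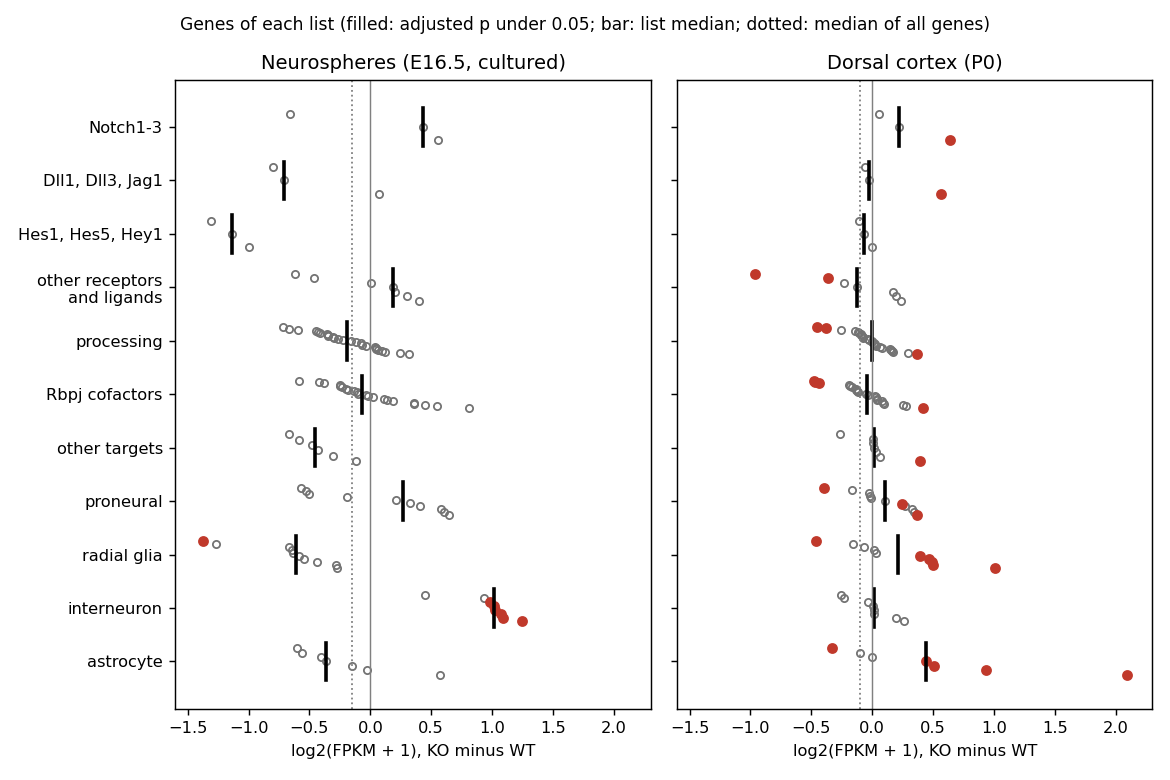
Difference between KO and WT in log2(FPKM + 1) of every tested gene of the receptor, ligand and target groups, the 5 further pathway lists and the radial glia, interneuron and astrocyte markers, in neurospheres and in cortex, with each list's median as a bar and genes past the test filled. All 6 genes of the further Hes and Hey and target list lie below 0 in neurospheres, with a median of −0.45 (all genes −0.15). The median is 0.01 for the 7 tested in cortex (all genes −0.10).

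Markers of several cell types moved in the same libraries. Of all 11408 genes tested in neurospheres, 0.219% passed as higher and 0.929% as lower. In neurospheres all 10 radial glia markers lay below 0, with a median of −0.61, against −0.15 for all genes tested. Their summed level was 967 to 1146 FPKM in KO and 1442 to 1756 FPKM in WT, next to the lower Hes1, Hes5 and Hey1. Of these 10, Slc1a3, a glutamate transporter of radial glia, passed, with 75.2 and 77.0 FPKM in KO 7 and KO 8, against 203 and 195 FPKM in WT 5 and WT 6 (log2 difference −1.38, limma adjusted p = 0.0181). Interneuron markers rose in 6 of 8 cases, among them Dlx2 (log2 difference 1.25, limma adjusted p = 0.0282), with a summed level of 1302 to 1307 FPKM in KO and 779 to 979 FPKM in WT. Of 10 neuron markers 1 rose, Tbr1, and the sum was 1547 to 1673 FPKM in KO and 1375 to 1610 FPKM in WT. The authors' deposited table called 5 of 9 neuron and 8 of 8 interneuron markers higher and 0 lower. It called 3 of 10 radial glia markers lower and 0 higher. Of all genes with an adjusted p there, 3.5% were called higher and 2.31% lower. Of 8 oligodendrocyte lineage markers 1 rose, Mbp, while 4 lay above 0 and 4 below (median −0.21), with a sum of 227 to 237 FPKM in KO and 240 to 267 FPKM in WT; the authors' deposited table called 1 higher and 2 lower. Of 6 intermediate progenitor, 7 astrocyte, 3 mural and 1 cilium markers tested 0 passed. Of the meningeal list 1 was in the FPKM table, Dcn, and it rose. The authors' deposited table called 4 of 5 meningeal and 2 of 4 mural markers higher. It called 0 of the intermediate progenitor, astrocyte and cilium markers. With a pseudocount of 0.1 the calls of Tbr1, Mbp and Dcn were lost (limma adjusted p = 0.0552, 0.0532 and 0.0508) and 3 interneuron markers passed. Tbr1 also lost its call without any 1 of the 4 libraries, and without WT 5 or WT 6 no marker passed.
In cortex, next to the higher Notch1 and Dll3, 5 of 10 radial glia markers rose and 1 fell, and their sum was 1601 to 1709 FPKM in KO and 1230 to 1325 FPKM in WT. Of all 11988 genes tested in cortex, 4.8% passed as higher and 17.7% as lower. Astrocyte markers rose in 4 of 7 cases and fell in 1, with a sum of 577 to 646 FPKM in KO and 327 to 346 FPKM in WT, and Gfap had 104 and 81.3 FPKM in KO 1 and KO 2, against 20.4 and 21.4 FPKM in WT 1 and WT 2. Oligodendrocyte lineage markers rose in 4 of 8 cases (sum 80.0 to 91.1 FPKM in KO and 61.9 to 72.4 FPKM in WT), and meningeal markers in 7 of 8 (89.8 to 96.7 FPKM in KO and 67.3 to 69.7 FPKM in WT). Microglial markers rose in 4 of 8 cases and fell in 1, at 53.3 to 60.8 FPKM in KO and 45.2 to 46.8 FPKM in WT. Of 9 endothelial and 8 interneuron markers 0 passed, of 10 mural markers 1 rose, of 7 intermediate progenitor and 10 neuron markers 1 rose and 1 fell in each list, and of 3 cilium markers all 3 fell (sum 3.98 to 6.53 FPKM in KO and 11.3 to 16.4 FPKM in WT). The sums of the endothelial list were 89.3 to 93.8 FPKM in KO and 83.8 to 86.5 FPKM in WT, and those of the mural list 77.4 to 83.1 FPKM in KO and 69.7 to 73.5 FPKM in WT. With the spread taken from all 8 libraries none of these cortex markers passed, and 1 gene was higher and 5 lower of all 10947. No marker that was in a table was listed at 0. The part of these marker changes in the values of the Notch genes was not tested.

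The genes whose pattern was most like that of Notch1 and Dll3 were found by the root mean square distance of their log2 values. Each gene was first centred on its mean over the KO and WT libraries of a tissue. The distance was taken over the 8 libraries, for 10946 other genes. For Notch1 they were Cic, a transcriptional repressor (distance 0.07), Zswim6 (0.07) and Sema7a, a membrane-anchored semaphorin (0.08), against a size of 0.28 for the pattern of Notch1 itself. For Dll3 they were Txnip, a thioredoxin-binding protein (0.12), Sox10, a transcription factor of the oligodendrocyte lineage (0.12), and Rcn3 (0.13), against 0.39 for Dll3 itself. Sox10 averaged 6.22 FPKM in KO and 13.02 FPKM in WT neurospheres, and 4.43 FPKM in KO and 3.15 FPKM in WT cortex. Like Dll3 it was lower in KO neurospheres and higher in KO cortex, with log2 differences of −0.98 (limma adjusted p = 0.0965) and 0.39 (limma adjusted p = 0.0408).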

How the data were processed

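Gene expression was measured by stranded, poly(A)-primed RNA-seq in 8 libraries, 2 per group. Per the submitters' processing notes, the authors' tools included STAR, Bowtie, Trim Galore, Cufflinks, featureCounts and DESeq2, with reads placed on mm9 (versions not given). The authors deposited FPKM values with Cufflinks confidence bounds, 1 run per library. The deposited tables were restricted on the WT libraries, whose lowest value was 1.0 FPKM, so a gene that comes on only in KO is outside them. A second pair of deposited tables gives, per the file headers, a signal column with the mean normalised count, a log2 fold change, the error of that fold change (taken as a score), and a raw and an adjusted p-value, all by the authors with DESeq2. No source states whether counting used strand, so values of genes with an overlapping antisense partner are uncertain.

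Rows with a date in place of a symbol (20 in neurospheres and 21 in cortex) were removed, and of repeated symbols (20 and 29 rows) the row with the highest mean was kept. Genes below a mean of 1 FPKM were left out, and log2 of the FPKM plus a pseudocount of 1 was fitted per tissue with limma-trend (limma 3.58.1 in R 4.3.3, two-sided), with Benjamini-Hochberg adjustment over all genes and a threshold of 0.05. Fold changes on this scale understate those of low genes. The contrast of differences used all 8 libraries and genes kept in both tables, each difference taken within its table. No total counts were used, so precision rests on the replicates and on the Cufflinks bounds. The fit was tested on simulated data. Summaries and plots used pandas 2.3.3, matplotlib 3.10.9 and scipy 1.17.1 under Python 3.11.15. Other genes were named by rule: those of each pathway list past the threshold, or else the 2 with the largest difference, and the leading markers of each marker list. The genes and lists were chosen with earlier results of these data known.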

Additional observations from a re-analysis of the deposited data

Results flagged for a closer look

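Dll3 and Rbpj stood out because their KO libraries moved opposite ways in the 2 tissues: both KO neurosphere libraries were below both WT libraries, and both KO cortices were above both WT cortices. For Dll3 the difference of the KO effect, neurospheres minus cortex, was −1.36 on the log2 scale (SE 0.30, limma adjusted p = 0.0706). For Rbpj it was −0.32 (limma adjusted p = 0.330), and its neurosphere value of −0.19 came to −0.036 after median-ratio rescaling and −0.053 by quantiles, beside 0.00 in the authors' deposited table. Neither difference passed the test, and 4.06% of all genes showed the same arrangement of libraries.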

How the results depend on the processing

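Rescaling by median ratios, which moved the median gene by 0.14 in neurospheres and 0.10 in cortex, and quantile normalization left 0 of 10 genes called in neurospheres and added Notch2 in cortex (adjusted p = 0.0427 and 0.0391). All-gene calls depended on scaling: 25 higher and 106 lower became 52 and 78 (rescaled) or 71 and 88 (quantile) in neurospheres, and 575 and 2124 became 1131 and 934 or 983 and 941 in cortex. With a pseudocount of 0.1, neurospheres had 11 and 54. With the spread from all 8 libraries the member counts were 1 higher and 6 lower in neurospheres and 0 higher in cortex. The filter at a mean of 5 FPKM left 1 higher in cortex, since it removed Dll3. Leaving out 1 library gave 0 to 3 lower in neurospheres (Hes1, Hes5 and Hey1 without KO 7, Hes1 and Dll3 without KO 8), 1 to 2 higher in cortex, and 0 to 2 below 0 for the difference between tissues (Hey1 without WT 6, Hes1 and Hes5 without KO 7, Notch3 and Dll3 without KO 8). Without WT 5 or WT 6, limma called 0 genes in all of neurospheres (1227 and 2650 at an unadjusted p under 0.05), and without KO 7 or KO 8 it called 390 and 623 lower. In each such fit, cortex included, the lone library is assumed to vary like the pair it is set against.

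Values with an interval across 0 changed sign. In cortex Dll1 came to 0.066 rescaled and 0.079 by quantiles, Jag1 to 0.012 and 0.0595, Hes5 to 0.033 and 0.045, Hey1 to 0.10 and 0.10, and Hes1 to 0.0067 by quantiles. Leaving out 1 cortex library gave −0.015 to 0.13 for Notch3, −0.13 to 0.073 for Dll1, −0.34 to 0.12 for Hes1, −0.19 to 0.048 for Hes5 and −0.11 to 0.10 for Hey1. In neurospheres Dll1 ranged over −0.088 to 0.23. For the difference between tissues Dll1 ranged over −0.059 to 0.26 and Hdac3 over −0.026 to 0.23. The cause of these changes was not tested.

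With the replicate block in cortex, 2 genes were higher and 0 lower, as without it, and 559 and 1968 of all genes. The deviations of cortex KO 1 and WT 1 from their group means correlated at −0.0955 over 11988 genes. With 2 libraries per group the deviations within a group mirror each other, so this value cannot decide whether the numbers mark pairs. No label states a pairing, and neurosphere libraries share no number.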
